A study of Mus musculus with 4 samples.

Results

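Border-associated macrophages are the resident macrophages of the brain's borders, and here they were 362 of 30363 barcodes (1.19%) in CD45+ cells sorted from the mouse brain. A member is a barcode with at least 1000 unique molecular identifiers (UMIs, each standing for 1 captured transcript) and mitochondrial genes at no more than 10% of them. It was selected on UMIs of at least 3 of Mrc1, Pf4, F13a1, Cd163, Ms4a7, Lyve1 and Cbr2 that summed to at least 0.15% of its UMIs, on no UMI of Cd3e or Cd79a, and on S100a8 and S100a9 together under 3%. These 7 genes chose the cells, so their levels are descriptions and support nothing.

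The study set young against aged brains after cardiac arrest and resuscitation. Each of the 4 groups is a single 10x Genomics 3' library pooled from 3 wild-type C57Bl/6 mice, taken at day 3. The groups are young sham and young cardiac arrest (CA; mice of 3 to 6 months) and aged sham and aged CA (18 to 20 months). Arrest was brought about with KCl and followed by resuscitation, and sham mice had the surgery without it. All mice were intubated under isoflurane and perfused, the brain was dissociated mechanically, and immune cells were enriched on Percoll before the CD45 sort. With 1 library a group there are no replicates within a group, and no test between conditions was made: every interval below is a 95% interval for counting error only, and the spread between mice is unknown.

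Border-associated macrophages sit along vessels, in the meninges and in the choroid plexus, where they take up material from blood and cerebrospinal fluid through scavenger receptors and present antigen. They are known to differ among themselves along an axis from Lyve1-high, scavenging cells to cells high in MHC class II, the molecules that present peptide to CD4 T cells. Glucocorticoids and interferons are both well-known regulators of macrophage genes, the first through a nuclear receptor and the second through a kinase cascade from the cell surface.

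The young libraries held 119 members (sham) and 96 (CA), the aged ones 73 and 74. Their share of kept barcodes was 1.47% (exact interval 1.22 to 1.75) in young sham and 0.968% (0.785 to 1.18) in young CA, a ratio of 0.661 (0.500 to 0.872). In aged mice it was 1.11% (0.872 to 1.40) in sham and 1.29% (1.012 to 1.613) in CA, a ratio of 1.16 (0.827 to 1.62) whose interval includes 1. Both ratios changed with the members counted: without members at 0.1% or more microglia markers, which leaves 32, 61, 21 and 63 members (young sham and CA, then aged sham and CA), the young ratio was 1.56 (1.002 to 2.475) and the aged ratio 3.43 (2.06 to 5.91). That cut removed 87, 35, 52 and 11 members. Microglia themselves carried less of these markers in CA than in sham at both ages, so a fixed cut need not take like cells from sham and CA. Of barcodes that were not microglia by a marker rule, members made up 24.8% and 7.77% in young sham and CA (of 480 and 1235 such barcodes) and 5.48% and 3.86% in aged sham and CA (of 1333 and 1917). Shares say nothing of cell numbers in the brain, and fewer of one cell type cannot be told apart from more of another.

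**Figure D1:**
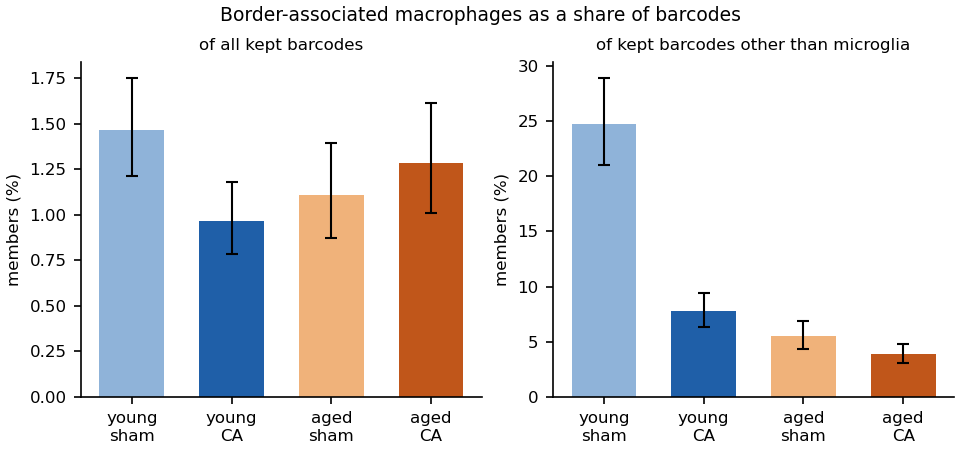
Share of border-associated macrophages in the 4 libraries, as a percent of kept barcodes (left) and of kept barcodes that are not microglia (right); bars are shares and lines exact 95% intervals for counting error. The left shares lie between 0.968% and 1.47%, while the right shares go from 24.8% in young sham to 3.86% in aged CA.

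The members' median depth was similar across libraries, with median UMIs of 9445, 9345, 8250 and 9062. Where 4 values follow each other, here and below, the young pair comes first and the aged pair second, each as sham, then CA. At a minimum of 5000 UMIs 99, 80, 46 and 67 of the 119, 96, 73 and 74 members were left, so aged sham lost the most. Summed over members the libraries held 1217164, 1047853, 580451 and 793588 UMIs, and levels are given as CPM, the count scaled to these sums. A gene with no UMI is limited at 3 counts to 2.46, 2.86, 5.17 and 3.78 CPM. The 4 libraries share 15 to 32 barcode sequences per pair, and none is a member in both libraries. In 1 case, between aged sham and aged CA, the sequence is a member's in a single library of the pair. Aged sham stands apart in neuronal RNA: 7 neuron markers summed to 59.2, 48.7, 205 and 47.9 CPM in members, and to 405 CPM in aged sham microglia against 41.0 to 66.2 in the other libraries. Every aged comparison with sham rests on that library and cannot be made without it.

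Genes outside the rule describe the pooled members further. Of 25 other markers of these cells, 24 were higher in members than in microglia and than in all other kept barcodes in all 4 libraries; the exception was Slc40a1, the iron exporter ferroportin. Members were high in Lyz2 (lysozyme), Apoe (the lipid carrier apolipoprotein E), Dab2 (an endocytic adaptor), Pla2g7, Vcam1, Cd93 and Ms4a4a, all among the 15 genes outside the rule with the largest excess over the rest. Apoe stood at 35350, 28346, 33212 and 25874 CPM in members and at 467, 3445, 976 and 2180 CPM in microglia. Summed over the 25 markers, members stood at 10171, 7799, 8867 and 5526 CPM, and monocytes by a marker rule at 2233, 3536, 1983 and 3558 CPM. Since members were chosen by marker, a gene's excess in them is a description, not a test. It holds for pooled members and does not vouch for each of them. Members high in class II, described below, were low in Lyve1 and Folr2 and carried Ccr2.

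Transcripts of other cells were present and moved between the libraries. The 7 microglia markers summed to 2033, 1340, 1604 and 570 CPM in members, which is 23.04%, 27.1%, 20.9% and 19.4% of the level in the microglia of the same library. UMIs of these markers outnumbered those of the rule genes in 6, 9, 15 and 1 members (5.04%, 9.38%, 20.55% and 1.35%), most often in aged sham. The 8 monocyte markers summed to 307, 1341, 314 and 581 CPM, and 1, 8, 4 and 4 members had UMIs of 3 or more of them. Ly6c2, Chil3 and Hp were among those at 0 in young sham members. T and NK cell markers summed to 4.93, 0.954, 5.17 and 87.0 CPM. These contributions were not separated from the members' own RNA in the values below, and values without the members concerned are given where they differ.

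The 7 rule genes also varied among the selected cells. Mrc1, the mannose receptor, was at 3102, 2194, 2550 and 2143 CPM, and Pf4, a platelet-factor chemokine, at 1886, 925, 1397 and 513 CPM. Cd163, the receptor for haemoglobin bound to haptoglobin, was at 578, 597, 346 and 939 CPM. All 7 genes were seen in 51, 24, 11 and 12 members, and 6 or 7 in 80, 43, 27 and 22. The rule sum ran from 0.152% upwards in young sham; between 0.15% and 0.2% lay 9, 11, 7 and 8 members, and 9, 11, 9 and 8 barcodes that met the rest of the rule lay just outside at 0.1% to 0.15%.

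The first question is what cardiac arrest was followed by in these cells at day 3. A gene was eligible at 25 CPM or more in one of the 2 libraries, with 20 UMIs over both and UMIs in 5% of the members of the higher library, and it was counted as higher or lower at a 2-fold ratio computed after adding 5 CPM to each level. In young mice 164 of 6514 eligible genes (2.52%) were 2-fold or more higher in CA and 155 (2.38%) lower. In aged mice 507 of 6726 (7.54%) were higher and 713 (10.6%) lower. The aged sham sum of UMIs is the smallest of the 4, and the difference between the ages was not tested. Of 6061 genes eligible at both ages, 93 were higher at both, out of 137 in young and 376 in aged mice, and 68 were lower at both, out of 119 and 598. Only 7 were past 2-fold in opposite directions.

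**Figure D2:**
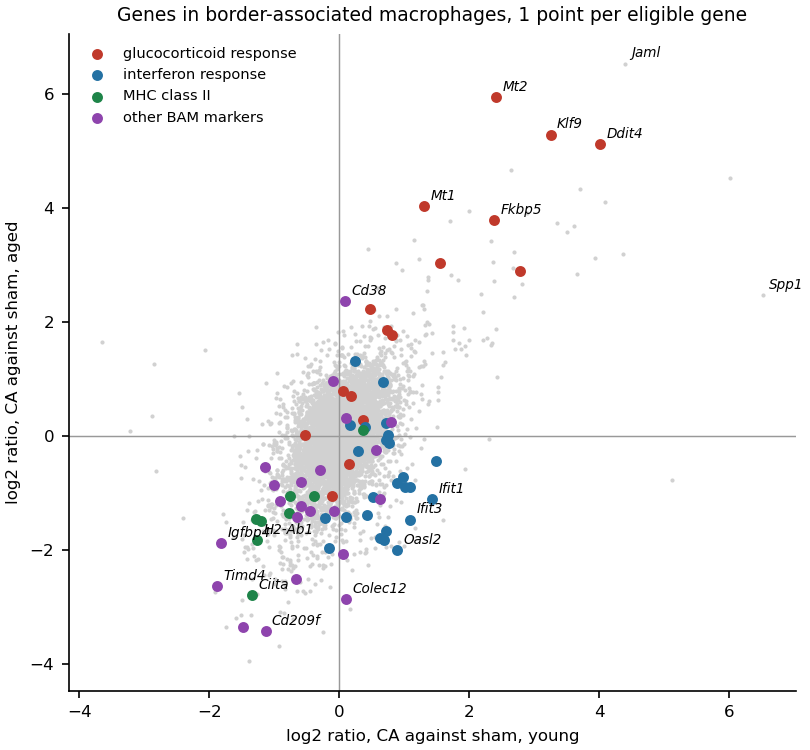
Log2 ratio of CA to sham in members of young (x axis) and aged mice (y axis), with 5 CPM added to each level; each point is 1 of 6061 genes eligible at both ages, coloured for 4 gene lists. The 93 genes higher at both ages and the 68 lower at both lie in the upper right and lower left, and 7 lie past 2-fold in opposite directions.

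Among genes with UMIs in at least 10% of the members of the higher library, no member of which held over 20% of them, the largest excess shared by both ages was that of Jaml, which encodes a junctional adhesion molecule of leukocytes. It stood at 0.822, 117, 0 and 457 CPM, from 1, 123, 0 and 363 UMIs. In aged CA, 81.1% of members had a Jaml UMI and no member held over 3.58% of them, and in young CA 31.3% had one. The aged CA level was at least 88.5-fold above sham (taking sham at 3 counts in its library), and in young mice the interval of the ratio to a single sham UMI was 25.2 to 5689. Microglia stood at 0.237, 1.62, 1.22 and 2.26 CPM of Jaml and monocytes at 54.2, 68.5, 10.7 and 37.9 CPM, so the aged CA members were above both. Without members with 3 monocyte markers Jaml was at 126 CPM in young CA and 509 CPM in aged CA, and in members with 6 or 7 rule genes at 58.6 and 436 CPM. Jaml lies on the plus strand at chr9:45079183-45108534 (GRCm38).

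Genes known to respond to glucocorticoids were higher in CA at both ages. In young mice 14 of the 16 eligible genes of that list were above 0, 7 of them 2-fold or more higher, with a median log2 ratio of 0.78; the median over all eligible genes was -0.01. In aged mice 15 of 17 were above 0, 11 were 2-fold or more higher and Sesn1 alone was lower, with a median of 2.22 against -0.01 over all genes. The share of all eligible genes that were higher was 2.52% in young CA and 7.54% in aged CA. The same list had a median of 1.25 in young and 1.53 in aged microglia, so the direction was shared with microglia in both ages.

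Fkbp5, which encodes a co-chaperone that dampens the glucocorticoid receptor, was at 154, 824, 70.6 and 1038 CPM (minus strand, chr17:28399094-28517527). Both CA libraries were above both sham libraries, 5.36-fold in young (4.57 to 6.31) and 14.7-fold in aged mice (10.7 to 20.6), and 97.3% of aged CA members had a UMI of it. Microglia showed 206, 772, 108 and 869 CPM. Klf9, a transcription factor induced by the receptor, was at 8.22, 121, 1.72 and 257 CPM, 14.8-fold higher in young CA (7.76 to 31.5) and, against a single sham UMI in aged mice, with an interval of 26.5 to 5922. Ddit4, an inhibitor of mTORC1, was at 5.75, 169, 1.72 and 228 CPM, 29.4-fold higher in young CA (14.0 to 74.1). Zbtb16, a zinc finger factor, was at 20.5, 171, 15.5 and 147 CPM.

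Metallothioneins, which bind zinc and copper, stood further from sham in aged than in young mice. Mt1 was at 297, 743, 140 and 2366 CPM, 2.496-fold higher in young CA (2.20 to 2.84) and 17.0-fold in aged CA (13.6 to 21.5). All 74 aged CA members had an Mt1 UMI, and the highest held 13.2% of them. Mt2 was at 7.39, 61.1, 1.72 and 410 CPM. Mt1 in aged CA microglia was at 449 CPM, below the members. Tsc22d3, the leucine zipper GILZ, was less different, at 212, 357, 150 and 556 CPM, and the clock gene Per1 at 65.7, 93.5, 29.3 and 155 CPM.

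The promoters of Klf9 and Ddit4, the pair of this list with the largest smaller CA ratio over both ages, are printed to show the stretch before the start of genes that differed together; they cover 250 bases upstream of the RefSeq start in GRCm38.p6. Mt1 was added after its match was seen. Capitals mark the palindromic glucocorticoid response element GNACANNNTGTNC (the same on both strands). The regions are chr19:23140976-23141225 (plus strand) for Klf9, chr10:59951771-59952020 (minus strand) for Ddit4 and chr8:94178839-94179088 (plus strand) for Mt1.
Klf9: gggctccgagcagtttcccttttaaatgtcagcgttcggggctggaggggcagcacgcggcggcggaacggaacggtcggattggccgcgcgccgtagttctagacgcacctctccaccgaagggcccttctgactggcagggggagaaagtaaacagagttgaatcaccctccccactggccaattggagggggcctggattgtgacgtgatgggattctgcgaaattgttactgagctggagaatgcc
Ddit4: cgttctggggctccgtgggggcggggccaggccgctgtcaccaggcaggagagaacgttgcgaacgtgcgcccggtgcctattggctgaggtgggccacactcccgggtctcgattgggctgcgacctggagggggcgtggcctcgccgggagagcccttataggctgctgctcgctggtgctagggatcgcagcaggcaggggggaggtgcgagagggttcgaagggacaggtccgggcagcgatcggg
Mt1: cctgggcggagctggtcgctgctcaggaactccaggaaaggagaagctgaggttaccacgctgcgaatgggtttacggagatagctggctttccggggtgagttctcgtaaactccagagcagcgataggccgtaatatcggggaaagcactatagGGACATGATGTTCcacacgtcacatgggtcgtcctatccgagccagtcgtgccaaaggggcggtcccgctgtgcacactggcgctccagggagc
Only the Mt1 stretch holds the palindrome, 94 bases before the start. Over all mouse promoters of the table, with 50 bases after the start included, 156 of 32851 (0.475%) hold it. Of the 16 genes of the list with a promoter, 2 hold it, Sgk1 and Mt1. A match is a description of letters, and its absence in this window says nothing of the receptor's binding.

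**Figure D3:**
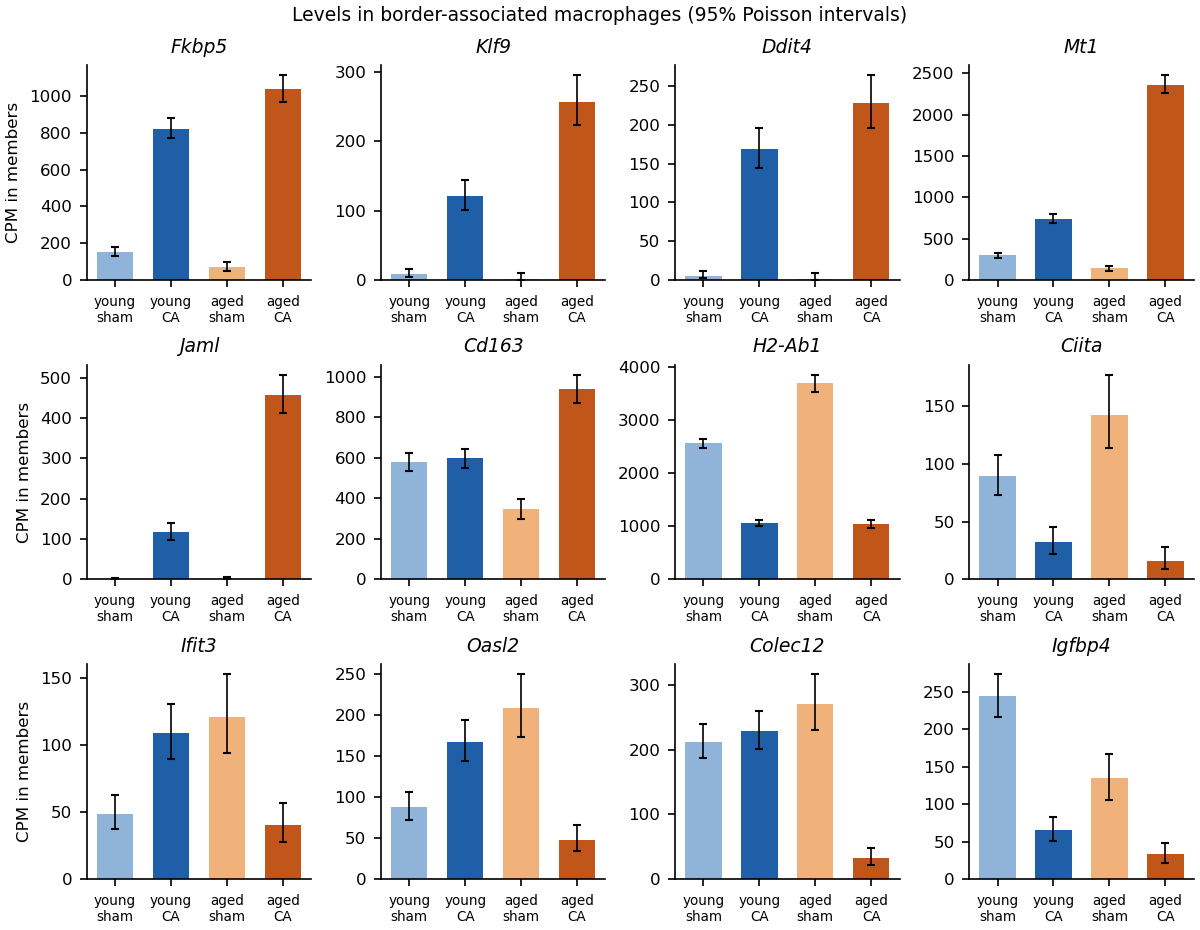
Level of 12 genes in members of the 4 libraries, in CPM on axes that start at 0; bars are levels and lines exact 95% Poisson intervals for counting error, with 1 library a group. Fkbp5, Klf9, Ddit4, Mt1 and Jaml are higher in both CA libraries than in both sham libraries, H2-Ab1, Ciita and Igfbp4 lower, and Colec12 is lower in aged CA alone (32.8 CPM).

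Several other genes were higher in CA at both ages. Hif3a, a hypoxia-inducible factor, was at 4.93, 59.2, 0 and 41.6 CPM and Pik3ip1, an inhibitor of PI3 kinase, at 0.822, 38.2, 0 and 70.6 CPM. Clec4d, a C-type lectin receptor, was at 11.5, 98.3, 3.45 and 208 CPM, and Plaur, the urokinase receptor, at 3.29, 47.7, 8.61 and 99.6 CPM. Msrb1, a methionine sulfoxide reductase, was at 32.9, 186, 19.0 and 251 CPM, and Abca6 at 4.11, 31.5, 1.72 and 98.3 CPM. Gda, guanine deaminase, was at 5.75, 116, 10.3 and 178 CPM, but its level depended on which members were counted. In members with 6 or 7 rule genes it was at 38.4 CPM in young CA and 22.2 CPM in aged CA, against 186 and 258 CPM in those with 3 to 5.

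The MHC class II genes were lower after arrest at both ages. Of 8 eligible genes 4 were 2-fold or more lower in young CA, with a median log2 ratio of -0.98, and 7 in aged CA, with a median of -1.41; the exception above 0 at both ages was Ctss, the cathepsin that trims the invariant chain, at 2472, 3187, 2787 and 2988 CPM. The same genes had a median of 0.06 in young and -0.40 in aged microglia, where their levels are low (H2-Ab1 at 31.3 to 58.0 CPM). Over all eligible genes in members, 2.38% were 2-fold or more lower in young CA and 10.6% in aged CA. H2-Ab1, a beta chain, was at 2557, 1060, 3683 and 1036 CPM in members, 2.41 times lower in young CA (2.25 to 2.59) and 3.56 times lower in aged CA (3.28 to 3.86). The alpha chain H2-Aa was at 2649, 1149, 3880 and 1367 CPM and H2-Eb1 at 2517, 1033, 3335 and 1208 CPM. Cd74, the invariant chain, was at 5691, 3374, 7563 and 3638 CPM. Ciita, the master activator of these genes, was at 89.6, 32.5, 143 and 16.4 CPM. Each gene was lower in both CA libraries than in both sham libraries. In aged CA a single member held 29.2% of the H2-Aa UMIs.

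These sums combine how many members carried class II transcripts with how much each carried. Members with H2-Aa, H2-Ab1, H2-Eb1 and Cd74 at 1% or more of their UMIs numbered 38 of 119, 21 of 96, 39 of 73 and 16 of 74, or 31.9% (23.7 to 41.1), 21.9% (14.1 to 31.5), 53.4% (41.4 to 65.2) and 21.6% (12.9 to 32.7). The aged CA share was 0.405 (0.211 to 0.741) of the aged sham share, and the young ratio of 0.685 (0.382 to 1.20) had an interval that includes 1; both intervals cover counting error over cells only. The line at 1% was set after the values were seen, and 7, 14, 17 and 17 members lay between 0.5% and 2%. After thinning each member to 1000 UMIs the numbers were 38, 22, 41 and 14. Among members above the line H2-Aa, one of the genes that drew it, was at 8107, 4349, 7250 and 5961 CPM. Its level within them was thus also lower in CA than in sham at both ages.

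Members above and below that line differed in other genes, given as a description of cells sorted by their own transcripts. Lyve1 was at 7.72, 11.98, 3.30 and 0 CPM above the line and at 397, 347, 198 and 246 CPM below it. Folr2, a folate receptor, was at 74.6, 35.9, 29.7 and 0 CPM above and 331, 253, 241 and 105 CPM below. Ccr2, the receptor that draws monocytes, was at 759, 771, 287 and 433 CPM above and at 1.21, 308, 0 and 142 CPM below. The median share of microglia marker UMIs was 0.147%, 0.0594%, 0.147% and 0.0176% above the line and 0.157%, 0.0831%, 0.159% and 0.0390% below it, and that of monocyte markers, Ccr2 among them, was 0.0394%, 0.0826%, 0.00906% and 0% above and 0% in all 4 libraries below. After thinning, none of the 362 members had both a Lyve1 UMI and class II at 1%, and without thinning 3, 1, 1 and 0 did. Lyve1, itself a rule gene, had a UMI in only 27, 17, 5 and 10 members after thinning and in 65, 37, 16 and 21 before it. Whether the overlap was smaller than these numbers allow was not tested. The glucocorticoid list summed to 1749, 3299, 1591 and 5469 CPM above the line and to 2404, 4376, 1835 and 7780 CPM below it, so it was lower above the line in each library.

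**Figure D4:**
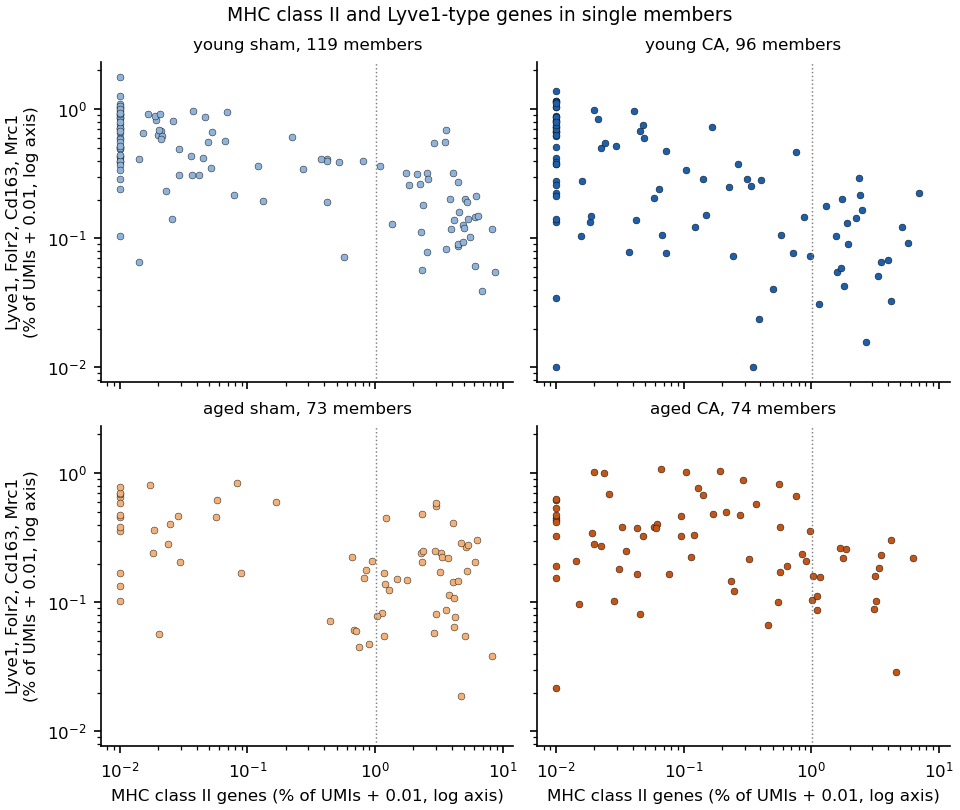
Each member's summed share of UMIs of H2-Aa, H2-Ab1, H2-Eb1 and Cd74 (x axis) and of Lyve1, Folr2, Cd163 and Mrc1 (y axis), in percent on log axes after adding 0.01, in 4 panels by library; the dotted vertical line marks 1%. To its right lie 38 of 119, 21 of 96, 39 of 73 and 16 of 74 members, the fewest in aged CA.

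Interferon-response genes were mostly above sham in young CA and mostly below it in aged CA. In young CA 24 of 27 eligible genes were above 0, 5 were 2-fold or more higher and 1 lower, with a median log2 ratio of 0.68. In aged CA 6 of 25 were above 0, Cxcl10 alone was 2-fold or more higher and 11 were lower, with a median of -0.89. Over all eligible genes 2.52% were higher and 2.38% lower in young CA, and 7.54% and 10.6% in aged CA. Microglia of the same libraries had medians of 2.85 and 1.97 over the list, both above 0. The difference between the ages was not tested.

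Ifit3, an antiviral effector, was at 48.5, 109, 121 and 40.3 CPM, 2.24-fold higher in young CA (1.63 to 3.13) and 2.99 times lower in aged CA (1.94 to 4.70). In microglia it was at 6.23, 121, 14.8 and 161 CPM, so sham members were above sham microglia. Oasl2, an oligoadenylate synthetase-like gene, was at 87.9, 167, 208.5 and 47.9 CPM. Isg15, a ubiquitin-like modifier, was at 73.1, 124, 115 and 32.8 CPM. The aged sham level was above, and the aged CA level below, the young sham level in all 3 genes.

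Other members of the list were less even. Irf7, the factor that amplifies type I interferon, was at 51.8, 155, 67.2 and 47.9 CPM and Ifi27l2a at 677, 1443, 779 and 415 CPM. Bst2 (tetherin) was at 772, 827, 822 and 304 CPM, lower in aged CA only. Slfn2, a Schlafen gene, was above sham at both ages, at 245, 395, 303 and 591 CPM. Cxcl10, a chemokine for activated T cells, was at 48.5, 58.2, 17.2 and 50.4 CPM. A single member held 94.9% of its UMIs in young sham and 70.5% in young CA, whereas in aged CA 46.0% of members had a UMI and none held over 5%.

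The young excess moved with members that carried monocyte markers. The 8 such members of young CA summed to 12715 CPM over the list and the other 88 to 5868 CPM, against 4676 CPM in the 118 of young sham. Without them the young median was 0.22, and Isg15 stood at 60.4 CPM in young CA against 74.9 in young sham. The young median was -0.09 without members at 0.1% or more microglia markers, which leaves 32 and 61 members, and 1.04 in members with 6 or 7 rule genes. The 0.1% cut removed 87 young sham and 35 young CA members. Microglia themselves stood at 8821 CPM of these markers in young sham and 4939 CPM in young CA, so the cut need not leave like members. The part of members with monocyte or microglia markers in the young result was not tested beyond those values. The aged median kept its sign under all settings tried.

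Promoters are printed for the pair of the interferon list with the largest smaller CA ratio, Slfn2 and Cxcl10, and for Ifit1 and Ifit3, which were added after their matches were seen, to show the start of genes that differed from sham in opposite directions at the 2 ages (Ifit1, Ifit3) beside genes that did not. Capitals mark the core of the interferon-stimulated response element, GAAANNGAA, on either strand (TTCNNTTTC on the other). The 250 upstream bases lie at chr11:83064862-83065111 (plus strand) for Slfn2, chr5:92348890-92349139 (minus strand) for Cxcl10, chr19:34640639-34640888 (plus strand) for Ifit1 and chr19:34583279-34583528 (plus strand) for Ifit3, from RefSeq in GRCm38.p6.
Slfn2: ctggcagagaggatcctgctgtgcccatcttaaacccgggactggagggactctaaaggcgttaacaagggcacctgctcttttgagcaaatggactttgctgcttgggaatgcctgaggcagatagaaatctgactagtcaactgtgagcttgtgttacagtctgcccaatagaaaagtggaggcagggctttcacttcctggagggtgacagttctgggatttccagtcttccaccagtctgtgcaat
Cxcl10: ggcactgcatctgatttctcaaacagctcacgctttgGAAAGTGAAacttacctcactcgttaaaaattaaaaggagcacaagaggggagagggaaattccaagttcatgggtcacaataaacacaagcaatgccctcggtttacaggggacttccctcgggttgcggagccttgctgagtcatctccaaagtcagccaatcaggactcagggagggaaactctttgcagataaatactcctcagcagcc
Ifit1: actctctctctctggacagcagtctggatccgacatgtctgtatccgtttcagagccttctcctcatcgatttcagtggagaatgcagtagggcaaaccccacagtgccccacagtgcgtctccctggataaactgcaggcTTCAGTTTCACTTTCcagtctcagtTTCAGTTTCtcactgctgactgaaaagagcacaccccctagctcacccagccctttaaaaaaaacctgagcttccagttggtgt
Ifit3: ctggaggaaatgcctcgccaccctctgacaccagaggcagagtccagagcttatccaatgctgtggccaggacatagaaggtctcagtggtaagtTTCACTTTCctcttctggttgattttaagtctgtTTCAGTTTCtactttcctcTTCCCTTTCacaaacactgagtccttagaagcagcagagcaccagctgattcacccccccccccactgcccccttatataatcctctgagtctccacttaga
Ifit1 and Ifit3 each hold 3 matches, overlapping ones counted, and Cxcl10 holds 1, at 213 bases before the start. Slfn2 holds none. The core occurs in 2812 of 32851 promoters (8.56%) and in 14 of the 22 genes of the list with a promoter in the table.

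**Figure D5:**
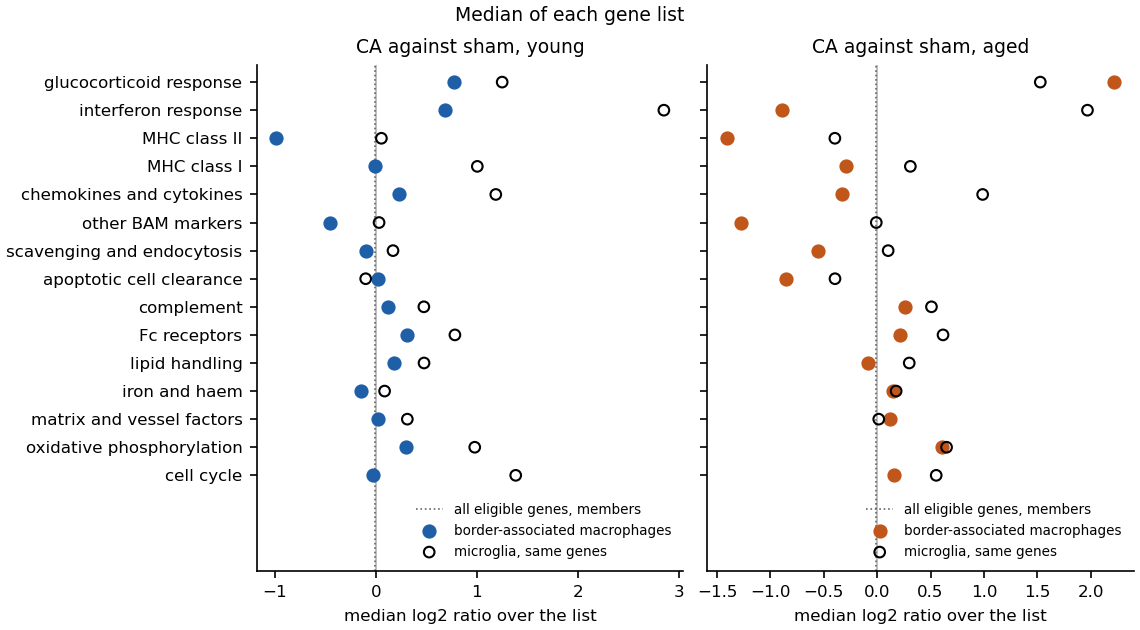
Median log2 ratio of CA to sham over the eligible genes of 15 lists, in members (filled) and in microglia over the same genes (open), for young (left) and aged mice (right); the dotted line is the median over all eligible genes in members. The glucocorticoid list lies right of 0 for both cell types at both ages, MHC class II lies left in members, and the interferon list lies at 0.68 in young and -0.89 in aged members.

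Markers of these macrophages outside the rule were lower in aged CA. Of the 24 eligible, 15 were 2-fold or more lower and Cd38 alone was higher, with a median log2 ratio of -1.28 (-0.28 after each member was thinned to 1000 UMIs); in young CA 5 of 23 were lower and the median was -0.45. The same genes had medians of 0.03 in young and -0.01 in aged microglia. The share of all eligible genes that were lower in members was 2.38% in young CA and 10.6% in aged CA. Cd209f, a lectin receptor, was at 274, 122, 212 and 15.1 CPM, 14.0 times lower in aged CA (7.74 to 27.9), although 1 member held 45.5% of its UMIs in aged sham. Timd4, a receptor for phosphatidylserine, was at 62.4, 13.4, 65.5 and 6.30 CPM. Siglec1, the sialic acid receptor CD169, was at 84.6, 88.8, 112 and 22.7 CPM, lower in aged CA only.

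Scavenging receptors followed a similar order. Colec12, a collectin scavenger receptor, was at 212, 229, 270.5 and 32.8 CPM, lower in aged CA under all 18 other settings tried (log2 ratio -3.26 to -2.37). Stab1, the endocytic receptor stabilin-1, was at 1386, 917, 948 and 400 CPM and Dab2 at 1581, 842, 1282 and 575 CPM. Cd36, a fatty acid and lipoprotein receptor, was at 241, 151, 89.6 and 30.2 CPM. Over the scavenging list 3 of 19 eligible genes were 2-fold or more lower in young CA (median -0.10) and 9 of 19 in aged CA (median -0.56), and none was higher at either age. Of all eligible genes 2.38% were lower in young CA and 10.6% in aged CA. Hpgd, which inactivates prostaglandins, was at 710, 448, 632 and 107 CPM; microglia stood at 511, 322, 407 and 106 CPM, so this order was shared. Cd38, an NAD-consuming enzyme, stood at 171, 182, 77.5 and 418 CPM in members and between 0.253 and 0.918 CPM in microglia.

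Genes lower in CA at both ages included Igfbp4, a binding protein for insulin-like growth factors, at 244, 65.9, 134 and 32.8 CPM (3.71 times lower in young CA, 2.84 to 4.89, and 4.10 in aged CA, 2.60 to 6.66). Igf1 itself was at 253, 104, 221 and 45.4 CPM and near 0 in microglia (0.605 to 7.62 CPM). Mgl2, the lectin CD301b, was at 219, 77.3, 102 and 13.9 CPM. Rad51b was at 321, 82.1, 510 and 71.8 CPM and Bank1 at 389, 113, 546 and 49.1 CPM. The others named by the rule were B3glct, Gm31243, Mill2, Cmah, Plxna4, BC049352, Gm36738 and Gm20513, none above 176 CPM in any library. Gm31243 overlaps Bank1 on the opposite strand, and without a stated strand setting in the counting their reads cannot be told apart.

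Lists tied to inflammation, iron, lipid and matrix held genes on both sides of sham. Their counts stand beside 2.52% higher and 2.38% lower over all eligible genes in young CA, and 7.54% and 10.6% in aged CA. Of the lipid handling list 6 of 17 eligible genes were 2-fold or more higher in young CA and 1 lower (median 0.18), and in aged CA 4 of 16 were higher and 2 lower (median -0.09). Matrix and vessel factors had 6 of 16 higher and 2 lower in young CA (median 0.02), and 6 of 16 higher and 5 lower in aged CA (median 0.12). For iron and haem, 0 of 11 were higher and 1 lower in young CA (median -0.14), and 3 of 14 higher and 3 lower in aged CA (median 0.15). Of the chemokine and cytokine list 1 of 13 eligible genes was higher by 2-fold or more in young CA and 2 were lower, and 4 of 16 higher and 7 lower in aged CA, with medians of 0.23 and -0.33. Ccl9 was at 93.7, 234, 39.6 and 214 CPM with no member above 17.1% of its UMIs, and Ccl12 at 282, 331, 1411 and 464 CPM. Some values rested on single cells: Ccl2 was at 86.3, 118, 115 and 354 CPM with 75.8% of the aged CA UMIs in 1 member, and Ccl4 at 23, 47.7, 274 and 71.8 CPM with 95.6% of the aged sham UMIs in 1 member. Hmox1, the haem oxygenase, was at 57.5, 110, 63.7 and 557 CPM, but 1 member held 68.3% of the aged CA UMIs. Slc40a1 was at 113, 81.1, 51.7 and 17.6 CPM.

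Spp1 (osteopontin) was at 6.57, 1054, 8.61 and 70.6 CPM, 160-fold higher in young CA (81.1 to 372), with UMIs in 57.3% of members there and 25.9% of them in 1 member. Young CA microglia stood at 636 CPM, and without members with monocyte markers the young CA level was 1147 CPM. Lgals3 (galectin-3) was at 29.6, 416, 32.7 and 476 CPM, and at 10.1, 118, 26.5 and 351 CPM without those members. Plin2, the coat of lipid droplets, was at 51.8, 190, 53.4 and 163 CPM, with UMIs in 59.4% of young CA and 55.4% of aged CA members. Fn1 (fibronectin), at 13.2, 303, 1.72 and 111 CPM, and Chil3, at 0, 318, 1.72 and 150 CPM, were mostly in members with monocyte markers. Without those members Fn1 was at 0, 52.3, 0 and 44.4 CPM and Chil3 at 0, 0, 0 and 7.17 CPM. Cd300lf, an inhibitory receptor for phospholipids, was at 1.64, 81.1, 1.72 and 130 CPM.

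C1qa, a chain of the complement starter C1q, was at 5533, 6181, 5777 and 6032 CPM, and over the complement list none of 12 eligible genes was past 2-fold in young CA (median 0.12), with 1 higher and 2 lower in aged CA (median 0.26). Of all eligible genes 2.52% were higher and 2.38% lower in young CA, and 7.54% and 10.6% in aged CA. C4b was at 255, 230, 370 and 164 CPM. Oxidative phosphorylation had medians of 0.30 in young and 0.60 in aged mice, with 19 of its 21 genes above 0 each time and none reaching 2-fold. Of the transcription factors, Cebpb was at 171, 354, 177 and 446 CPM, higher in CA at both ages, and Mef2c at 1223, 685, 1228 and 374 CPM, lower at both. Among 7 eligible Fc receptor genes Fcgr4 alone was 2-fold or more higher in CA, at 25.5, 77.3, 25.8 and 103 CPM. None of the 7 was lower in young CA (median 0.31), and Fcrls alone was lower in aged CA (median 0.22). Mki67, a proliferation gene, was at 1.64, 0.954, 0 and 0 CPM in members and at 59.6 CPM in young CA microglia. None of 6 eligible cell cycle genes was past 2-fold in young CA and none of 4 in aged CA.

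The second question is how age bore on these cells. The sham comparison shares its libraries with the CA comparisons, so its ratios are not independent of them. Between the sham libraries 177 of 6578 eligible genes (2.69%) were higher by 2-fold or more in aged members and 118 (1.79%) lower. Cxcl13, a chemokine that attracts B cells, had no UMI in young members and stood at 1626 CPM in aged sham and 583 CPM in aged CA. It was seen in 0 of 119, 0 of 96, 8 of 73 and 20 of 74 members (10.96% and 27.03% in aged mice), and 0 cells allow a share of up to 2.52% and 3.13% in the young libraries, a limit on members with a UMI and not on members that express the gene. A single member held 66.5% of the aged sham UMIs and 35.2% of those in aged CA, so the level and the share of cells run in opposite orders between sham and CA. After thinning, 6.85% and 20.3% of aged members had a UMI against 0.210% and 0.417% of aged microglia thinned alike (median depths before thinning 8250 and 9062 UMIs in members and 3823 and 11086.5 UMIs in microglia).

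Class II and interferon genes were higher in aged sham members, without reaching 2-fold as a group. All 8 eligible class II genes were above 0 in the sham comparison with none past 2-fold (median 0.43), and 23 of 26 interferon genes were, with 6 past 2-fold (median 0.57). Of all eligible genes 2.69% were 2-fold or more higher. Microglia had medians of 0.55 and 0.62 over the same class II and interferon genes, so both directions were shared with microglia. Without members at 0.1% or more microglia markers the members' interferon median was -0.04. That cut removed 87 young sham and 52 aged sham members. The share of members with class II at 1% was 1.67 times that of young sham (1.04 to 2.69). Clec10a, the lectin CD301a, was at 275 CPM in young and 67.2 CPM in aged sham, Ednrb, an endothelin receptor, at 108 and 10.3 CPM, Plxdc2 at 620 and 155 CPM, and Cfp (properdin) at 72.3 and 15.5 CPM. Under the same limits on the members that carry a gene, which Cxcl13 does not meet, the genes with the largest excess in aged sham were Lsamp (17.2 and 190 CPM), Gpm6a, Lrrtm4, Ryr2 and Grin2a, which are neuronal genes and moved with the neuron markers of that library, and S100a9, a neutrophil gene that the rule limits.

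After CA, 209 of 6555 eligible genes (3.19%) were higher by 2-fold or more in aged members and 371 (5.66%) lower. Socs3, a feedback inhibitor of cytokine signalling, was at 15.6, 22.0, 17.2 and 192 CPM, and Ccl3, a chemokine, at 36.1, 30.5, 110 and 131 CPM. Lower in aged CA were Lst1, at 619, 325, 463 and 31.5 CPM, Fcrls, at 1178, 680, 855 and 108 CPM, and Olfml3, at 215, 180, 200 and 13.9 CPM. Microglia showed the same order after CA in these genes (Olfml3 at 814 and 139 CPM, Fcrls at 921 and 317 CPM, Lst1 at 120 and 13.3 CPM in young and aged), and Olfml3 is one of the microglia markers whose sum was lowest in aged CA members. Cd300lb was at 36.3 CPM in young CA with no UMI in aged CA. Among genes that met those limits in both CA comparisons, which leaves out Spp1, Mt2 and Cd300lb, the largest differences between the CA ratios of the ages were those of Pde7b, Olfml3, Colec12, Oasl2 and Lst1, more positive in young mice, and E230001N04Rik, Mt1, Gm22146, Mcoln1 and Tbc1d15, more positive in aged mice. Of these, E230001N04Rik and Gm22146 lie beside or within Fkbp5 on chromosome 17, on the other strand.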

How the data were processed

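CD45+ brain cells of 4 groups, 1 library each, were profiled with 10x Genomics 3' v3.1 chemistry, per the labels' protocols. The deposited matrices hold raw UMI counts per gene and barcode (32285 genes), which the authors produced with Cell Ranger 7.1.0 and mm10, per the submitters' processing notes; annotation, cell calling and strand setting are not given in the sources used here. Libraries held 9038, 10794, 7700 and 6794 barcodes and 44277472 to 115892682 UMIs. No value column was left unmapped.

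Counts were summed over members per library and scaled to CPM (Python 3.11.15, scipy 1.17.1). Intervals are exact: Poisson for levels, conditional binomial for ratios, Clopper-Pearson for shares. A gene at 0 is taken at 3 counts per library for a bound. Microglia and monocytes were taken by 3 or more markers at 0.15% of UMIs. No barcode was removed as a doublet: Scrublet (scanpy 1.11.5) marked 3, 0, 0 and 1 by its own threshold, so its highest scores at 0.8% per 1000 barcodes (528, 787, 345 and 265 barcodes, 3, 16, 1 and 3 of them members) were left out as an alternative, beside TMM scaling (edgeR 4.0.16), other limits, thinning and member sets. The scripts were tested on simulated data.

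Named genes were, for CA, the 12 with the largest smaller log2 ratio over both ages and the 12 most negative, the 6 largest and smallest per age comparison, the 5 largest and smallest differences of the CA ratios, and 15 markers, with UMIs in 10% of members and no member over 20%, plus list genes as examples. Positions are GENCODE GRCm38 and matched for 70 of 70 genes. The members and lists were chosen with earlier results of these data known. Mx1 and Clec7a have no row and were not analysed here, and some results of other genes are not reported here.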

Additional observations from a re-analysis of the deposited data

Results flagged for a closer look

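Among members, 3 genes and 1 list had CA ratios on opposite sides of sham at the 2 ages. For the genes the counting intervals, computed here with 5 CPM added to each level, exclude 0. For the list the medians of its genes' interval limits do, which is not an interval of the list median. The difference between the ages was not tested, as each group is 1 library. Ifit1 had a log2 ratio of 1.43 in young and -1.12 in aged mice, and Ifit3 1.09 and -1.47. Lpl, lipoprotein lipase, had 1.15 and -1.45, from 30.4, 73.5, 22.4 and 5.04 CPM and only 13 and 4 UMIs in the aged libraries, of which 1 member held 69.2% in aged sham. The median over the interferon list was 0.68 in young and -0.89 in aged mice. Members with 3 or more monocyte markers numbered 8 in young CA and 1 in young sham, and without them the young median was 0.22. Without members at 0.1% or more microglia markers the young ratios were below 0, at -0.15 for Ifit1, -0.22 for Ifit3 and -0.0927 for the list median. That cut removed 87 young sham and 35 young CA members, so it need not leave like members in both.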

How the results depend on the processing

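No paired analysis was possible because the groups compared share fewer than 2 replicate numbers, with 1 library each. Over 18 alternatives (12 for shares), a value was taken as unchanged within a range around the reported one. That range was the counting interval for shares and single genes (for genes with 5 CPM added to each level), and a fixed factor for counts of genes. For list medians it ran between the medians of the genes' lower and upper interval limits. Unchanged were 1539 list medians, 4134 single-gene values, 109 counts of genes and 39 shares. Outside the range lay 80, 645, 35 and 8 of them, and a further 8, 9, 0 and 1 changed direction. Requiring 6 rule genes (chosen after seeing the data) changed the share ratios to 0.440 (CA, young), 0.417 (age, sham) and 0.882 (age, CA), the class II medians to -1.67 (young) and -2.87 (aged), the interferon median in young mice to 1.04, the other-marker medians to 0.0148 (CA, young) and 0.0050 (age, sham), the alternative activation median in young mice to -0.0611, the age sham count lower to 355, and log2 of Ccl4 and Cxcl13 in aged mice to 2.01 and 2.06. Requiring 4 gave alternative activation -0.13, class II in aged mice -1.70, Ccl4 2.23 and Lpl 0.0193; rule genes at 0.3% gave class II in young mice -0.71. Leaving out members at 0.1% microglia markers gave share ratios of 1.56 (young) and 3.43 (aged), class II -1.28 (young), interferon -0.0927 (CA, young) and -0.0404 (age, sham), Ifit1 -0.15 and Ifit3 -0.22 (young), and counts higher and lower of 404 and 265 (CA, young), 290 and 225 (age, sham), with 776 higher (CA, aged). The 0.1% cut removed 87, 35, 52 and 11 members, more in sham than in CA at both ages. Without members with 3 monocyte markers the young interferon median was 0.22. Over barcodes that are not microglia the share ratios were 0.314, 0.705, 0.221 and 0.497 (CA young, CA aged, age sham, age CA). Eligibility at 10 CPM gave 254 and 283 (CA, young), 315 and 285 (age, sham) and 349 and 560 (age, CA); at 100 CPM 64 and 39, 189 and 302 (CA, aged), 51 and 23, and 55 and 128. Thinning gave 103 and 102 (CA, young), 142 and 188 (CA, aged), 77 higher (age, sham), and 88 and 156 (age, CA), with alternative activation at -0.20 (young), other markers at -0.28 (aged), NF-kB feedback at -0.0164 (age, CA) and Cxcl13 at 0.47 (CA, aged). Subtracting microglial RNA (chosen after seeing the data) gave 290 and 330 (CA, young), 322 and 280 (age, sham), 438 higher (age, CA), glucocorticoid 1.09 (young) and Cxcl10 -2.35 (aged). The age sham count lower was 194 at 5000 UMIs, 185 with 1 CPM added and 179 as a mean over members, and Ccl2 was -0.37 in aged mice at a mitochondrial limit of 5%. The cause was not tested for any of these. Of 170 single-gene ratios past 2-fold, 7 changed sign under some alternative. Intervals of shares rest on counts of cells, with 73 to 119 members a library. Those of gene levels and gene ratios rest on UMIs summed over members, and they leave out the spread between members.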
